A study of Mus musculus with 12 samples.

Results

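The genes described here are 10 genes of the mouse spinal cord that are widely read as astrocyte genes: Aldoc, Gfap, Slc1a2, Slc1a3, Aqp4, Agt, Gjb6, Atp1b2, Glul and S100b. They were chosen by name as 10 of the 25965 entries of the deposited count table, and all 10 passed the filter on low counts that left 16338 genes for testing. The RNA came from lower motor neurons cut from the lumbar spinal cord with a laser at 5 months of age, in mice of C57BL/6 background. The groups were wild type mice (+/+), heterozygotes (Q331K/+) and homozygotes (Q331K/Q331K) for a knock-in of the Q331K mutation in the gene of TDP-43, with 4 libraries each and 12 in all. TDP-43 is an RNA-binding protein whose mutations cause a motor neuron disease, amyotrophic lateral sclerosis. A knock-in allele is present in every cell, so astrocytes and neurons of a carrier both hold it. Nothing in the labels ties a library to a single mouse. The p-values therefore measure only the spread between libraries, which may be partly technical.

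Astrocytes wrap the cell bodies and synapses of motor neurons with fine processes, so a laser cut around a motor neuron can bring in their RNA. They clear glutamate from the synapse through the transporters encoded by Slc1a2 (GLT-1) and Slc1a3 (GLAST), and glutamine synthetase, encoded by Glul, turns that glutamate into glutamine. Aqp4 encodes the water channel of the end-feet on blood vessels, Gjb6 the gap junction protein connexin 30, and Atp1b2 a beta subunit of the sodium pump. Gfap encodes an intermediate filament of astrocytes, Agt the precursor of the angiotensin peptides, Aldoc a brain aldolase of glycolysis and S100b a calcium-binding protein. S100b and Aldoc are also known to be expressed by some neurons, and Glul by oligodendrocytes.

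The libraries held between 60886825 and 83504446 counts, and values are given as counts per 1000000 counts of the library (CPM). Counts per gene do not show the point mutation, so they give no check of the genotype labels. In 2 libraries, heterozygote replicate 1 and homozygote replicate 1, neuronal markers lay far from those of the other 10. The summed CPM of 18 motor neuron markers was 14005 and 14242 there and 5481 to 10099 in the other 10, with 11 of the 18 markers above and 2 below all of those 10. The summed CPM of 10 inhibitory interneuron markers was 58.1 and 46.6 against 456 to 949. Wild type replicate 3 stood apart in another way: the summed CPM of 18 oligodendrocyte markers was 3318 there and 1156 to 2111 in the other 11 libraries. Mbp, the gene of a main myelin protein, had 1445 CPM there and 412 to 719 CPM in the others. For the pairs of genes and the comparisons with wild type, values with and without these libraries are given below. In bulk RNA, fewer cells of a type and less RNA per cell cannot be told apart.

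The 10 genes differed greatly in level and did not vary as 1 group. Per kilobase of exon, the median over the 12 libraries was 479.7 CPM for S100b, 281.9 for Aldoc, 30.7 for Glul and 12.4 for Atp1b2. Medians were 6.05 CPM per kilobase for Gfap, 5.53 for Agt, 3.06 for Slc1a2, 2.57 for both Gjb6 and Aqp4, and 0.0917 for Slc1a3. Slc1a3, a defining transporter of astrocytes, was thus the lowest of the 10 on this scale, with at most 0.531 CPM per kilobase in any library. Only 3 steps in this order had ranges that did not overlap between neighbours: S100b above Aldoc, Aldoc above Glul, and Aqp4 above Slc1a3. The order of Slc1a2 and Gjb6 held in 7 of 12 libraries and that of Gfap and Agt in 8 of 12, so these neighbours did not differ beyond their spread. The rank of each of the 10 genes was the same with the longest coding transcript as the length. On the CPM scale, Aldoc and S100b together made up 78.9% to 88.8% of the summed CPM of the 10 genes, which ran from 1768 to 2375.

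**Figure D1:**
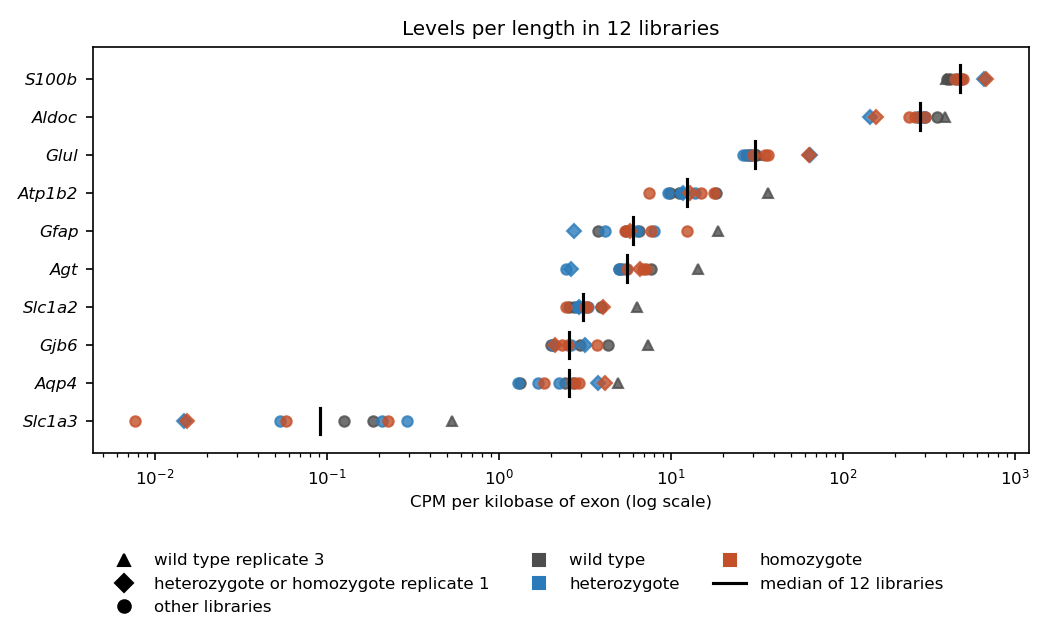
Levels of the 10 genes in CPM per kilobase of exon on a log axis, 1 point per library and coloured by genotype. S100b and Aldoc lie far above the others, Slc1a3 lies lowest, and wild type replicate 2, where Slc1a3 had 0 counts, is not drawn for that gene.

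Genes that work beside these 10 give the levels a scale. Aldoa, the aldolase of most tissues, had a median of 1198 CPM per kilobase, above Aldoc. Atp1b1, the neuronal beta subunit of the sodium pump, had 800.6 CPM per kilobase against 12.4 for Atp1b2. The astrocyte potassium channel gene Kcnj10 had 2.66 CPM per kilobase, the connexin 43 gene Gja1 had 1.21, and Aldh1l1, an enzyme of folate metabolism used to mark astrocytes, had 0.791. The neuronal beta subunit thus lay well above the glial one in these captures. Per kilobase of exon, Kcnj10, Gja1 and Aldh1l1 lay in the range of Aqp4, Gjb6 and Slc1a2 or below. For Gja1 this depended on the length: with the longest coding transcript its median was 3.89, against 3.47 for Slc1a2. Not all astrocyte genes were this low: Apoe and Sparc had means of 149 and 145 CPM, not scaled by length, against 16.2 for Gja1.

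S100b and Aldoc were abundant and moved in opposite directions in the libraries that stood apart. S100b (chr10:76253853-76261159 on the plus strand of GRCm38, ENSMUSG00000033208) had 708, 622, 594 and 601 CPM in the wild type libraries in order of replicate number. Its values were 979, 724, 719.9 and 683 CPM in the heterozygotes and 1010, 668, 737 and 716 CPM in the homozygotes. The highest S100b levels were those of heterozygote replicate 1 and homozygote replicate 1, and the other 10 libraries lay between 594 and 737 CPM. The wild type mean was 631 ± 52.5 CPM (SD, n = 4), that of the heterozygotes 776 ± 136 and that of the homozygotes 783 ± 154, with overlapping ranges. S100b overlaps Dip2a on the other strand over 1731 bases, and the library kits mark no strand, so reads of that stretch cannot be assigned to 1 of the genes. The counts of Dip2a were 3.24% of those of S100b.

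Aldoc (chr11:78322968-78327781, plus strand, ENSMUSG00000017390) had 964, 909, 1281 and 1147 CPM in the wild type libraries. In the heterozygotes it had 467, 930.3, 896 and 979 CPM, and in the homozygotes 511, 859.9, 791 and 983 CPM. The same libraries, heterozygote replicate 1 and homozygote replicate 1, held the lowest Aldoc levels, and the other 10 lay between 791 and 1281 CPM. The wild type mean was 1075 ± 171 CPM (SD, n = 4), the heterozygote mean 818 ± 236 and the homozygote mean 786 ± 199.6, and the ranges overlapped.

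Glul (chr1:153899944-153909723, plus strand, ENSMUSG00000026473) had 90.9, 104, 106 and 94.3 CPM in the wild type libraries. The heterozygotes had 213, 95.4, 97.2 and 86.9 CPM and the homozygotes 211, 122, 118 and 100.2 CPM. Glul was thus even over 10 libraries, at 86.9 to 122 CPM, and well above that range in heterozygote replicate 1 and homozygote replicate 1. Means were 98.8 ± 7.39, 123 ± 60.3 and 138 ± 49.7 CPM in wild type, heterozygotes and homozygotes (SD, n = 4 each). Of all 16338 genes tested, 10.3% lay above and 10.6% lay below all of the other 10 libraries in both of the libraries set apart, so a gene on the far side there was not rare. Glul overlaps 5830403L16Rik on the other strand over 265 bases, whose counts were 6.06% of those of Glul, and their reads cannot be told apart there either. Glul also overlaps A930039A15Rik on the same strand over 4423 bases, whose counts were 0.136% of those of Glul. Reading the libraries set apart in this way was chosen after their values were seen, and whether the marker levels of these libraries have a part in the values was not tested.

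RefSeq promoter windows on GRCm38.p6, from 250 bases before to 50 after a gene's start, were found for 8 of the 10 genes, with 2 starts for Aldoc. They are shown for the genes on which the results turn: the 3 just described, and Gfap and Agt from the group that follows. Capitals mark matches to short motifs of factors known in astrocytes and to the TATA box. For the half-site of nuclear factor I the letters are TTGGC or, on the other strand, GCCAA, for STAT factors TTCNNNGAA on either strand, and for the TATA box TATAAA or TTTATA. Each line runs 5′ to 3′ on the strand of the gene.
S100b, chr10:76253586-76253885, plus strand: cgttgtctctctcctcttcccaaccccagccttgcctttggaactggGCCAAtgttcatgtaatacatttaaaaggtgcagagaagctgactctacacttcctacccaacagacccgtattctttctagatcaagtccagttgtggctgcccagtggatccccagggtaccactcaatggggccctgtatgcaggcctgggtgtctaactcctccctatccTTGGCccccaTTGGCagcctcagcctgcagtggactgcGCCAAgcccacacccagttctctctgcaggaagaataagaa
Aldoc, chr11:78322823-78323122, plus strand: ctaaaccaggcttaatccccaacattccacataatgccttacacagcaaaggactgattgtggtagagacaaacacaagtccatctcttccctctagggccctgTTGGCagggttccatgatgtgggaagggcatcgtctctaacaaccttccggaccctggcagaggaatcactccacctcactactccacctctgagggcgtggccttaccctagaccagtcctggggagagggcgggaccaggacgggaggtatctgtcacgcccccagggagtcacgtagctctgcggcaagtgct
Glul, chr1:153899679-153899978, plus strand: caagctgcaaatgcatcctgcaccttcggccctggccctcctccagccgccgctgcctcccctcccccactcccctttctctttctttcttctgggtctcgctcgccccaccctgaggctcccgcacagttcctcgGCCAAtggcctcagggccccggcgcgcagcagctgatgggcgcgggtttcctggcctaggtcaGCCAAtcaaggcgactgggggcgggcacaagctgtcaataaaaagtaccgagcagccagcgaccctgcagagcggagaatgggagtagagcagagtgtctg
Gfap, chr11:102897151-102897450, minus strand: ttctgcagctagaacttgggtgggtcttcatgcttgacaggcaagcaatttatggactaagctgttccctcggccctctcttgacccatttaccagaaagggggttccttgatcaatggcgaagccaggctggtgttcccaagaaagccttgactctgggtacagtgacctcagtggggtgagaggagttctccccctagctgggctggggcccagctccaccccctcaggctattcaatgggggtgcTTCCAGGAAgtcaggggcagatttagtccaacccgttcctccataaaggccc
Agt, chr8:124569657-124569956, minus strand: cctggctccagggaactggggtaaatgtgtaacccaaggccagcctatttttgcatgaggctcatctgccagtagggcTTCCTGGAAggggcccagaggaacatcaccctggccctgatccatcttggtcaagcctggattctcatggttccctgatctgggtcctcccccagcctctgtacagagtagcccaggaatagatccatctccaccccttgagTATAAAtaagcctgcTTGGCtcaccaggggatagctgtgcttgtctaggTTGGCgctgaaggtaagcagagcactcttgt
S100b held 4 nuclear factor I half-sites, Glul and Agt held 2 each, and the first start of Aldoc held 1. Gfap and Agt held 1 STAT match each, and Agt held a TATA box before its start. Over the 9 windows, 5 had a nuclear factor I half-site, 4 a STAT match and 2 a TATA box. Of all 32851 promoter windows of the same length, 46.7% held a nuclear factor I half-site, 8.3% a STAT match and 13.6% a TATA box. A match is a description of letters and not evidence that a factor binds there.

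The other group of genes was Gfap, Slc1a2, Aqp4, Agt, Gjb6 and Atp1b2, which had lower medians per kilobase than the 3 genes above and were each highest in wild type replicate 3. With Aldoc and Slc1a3, 8 of the 10 genes had their highest value in that library, where 8.13% of all genes tested had theirs. This count was made after the values were seen and carries no test. The exceptions were Glul and S100b, at 1.12 and 0.954 times the median of the other wild type libraries.

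Gfap (chr11:102887336-102900912, minus strand, ENSMUSG00000020932) had 23.2, 15.8, 79.1 and 27.4 CPM in the wild type libraries. The heterozygotes had 11.5, 17.5, 33.7 and 26.7 CPM and the homozygotes 24.3, 52.2, 32.4 and 22.9 CPM. Wild type replicate 3 held 3.40 times the median of the other wild type libraries, and the 3 genotypes overlapped. The coefficient of variation over the 12 libraries was 60.5% for Gfap against 18.2% for S100b, 25.6% for Aldoc and 36.9% for Glul.

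Agt (chr8:124556534-124569706, minus strand, ENSMUSG00000031980) had 9.50, 9.81, 27.3 and 14.6 CPM in the wild type libraries. The heterozygotes had 4.97, 4.67, 9.46 and 10.4 CPM and the homozygotes 12.5, 13.6, 13.1 and 10.6 CPM. Every homozygote library lay above every heterozygote library, by a narrow margin of 10.6 against 10.4 CPM, and the wild type range took in the whole homozygote range and overlapped that of the heterozygotes. Means were 15.3 ± 8.33, 7.36 ± 2.96 and 12.4 ± 1.32 CPM in wild type, heterozygotes and homozygotes (SD, n = 4 each).

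The sodium pump subunit Atp1b2 (chr11:69599736-69605942, minus strand, ENSMUSG00000041329) had 40.5, 45.5, 149.6 and 74.5 CPM in wild type. It had 48.1, 39.5, 47.0 and 56.4 CPM in heterozygotes and 52.8, 72.9, 61.2 and 30.6 CPM in homozygotes. Apart from wild type replicate 3, the wild type values lay inside the range of the homozygotes or close to its upper end. The lowest Atp1b2 level was in homozygote replicate 4, which was also the lowest library for Slc1a2.

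The glutamate transporter gene Slc1a2 (chr2:102658659-102790784, plus strand, ENSMUSG00000005089) was the steadiest of this group, at 32.3 to 83.6 CPM. It had 33.4, 36.1, 83.6 and 51.6 CPM in wild type, 37.2 to 43.2 CPM in the heterozygotes and 32.3 to 52.7 CPM in the homozygotes, so the ranges overlapped. It overlaps Gm13872 on the other strand, whose counts were 1.09% of those of Slc1a2. The connexin gene Gjb6 (chr14:57123303-57133611, minus strand, ENSMUSG00000040055) ran from 5.34 to 19.8 CPM in wild type, 5.50 to 8.46 in heterozygotes and 5.69 to 9.89 in homozygotes. For both genes the wild type range was the widest and was set at its top by wild type replicate 3.

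The water channel gene Aqp4 (chr18:15389394-15403684, minus strand, ENSMUSG00000024411) had 8.24, 16.9, 30.6 and 15.1 CPM in wild type. It had 23.5, 8.03, 14.0 and 10.5 CPM in heterozygotes and 25.9, 17.2, 18.2 and 11.4 CPM in homozygotes. Aqp4 was also high in the libraries set apart, at 2.23 times the median of the other heterozygotes in heterozygote replicate 1 and 1.51 times that of the other homozygotes in homozygote replicate 1.

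The second glutamate transporter gene, Slc1a3 (chr15:8634124-8710764, minus strand, ENSMUSG00000005360), was close to the limit of detection. It had 81, 0, 305 and 133 counts in the wild type libraries, 9, 142, 166 and 34 in the heterozygotes and 9, 135, 31 and 5 in the homozygotes. These counts are 0 to 4.53 CPM, and a count of 0 in wild type replicate 2 allows a level of up to 0.048 CPM (3 counts; counting error only). The genotypes overlapped, and the coefficient of variation of 109.9% was the largest of the 10 genes. Reads were amplified without molecular identifiers, so these counts are not numbers of molecules.

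**Figure D2:**
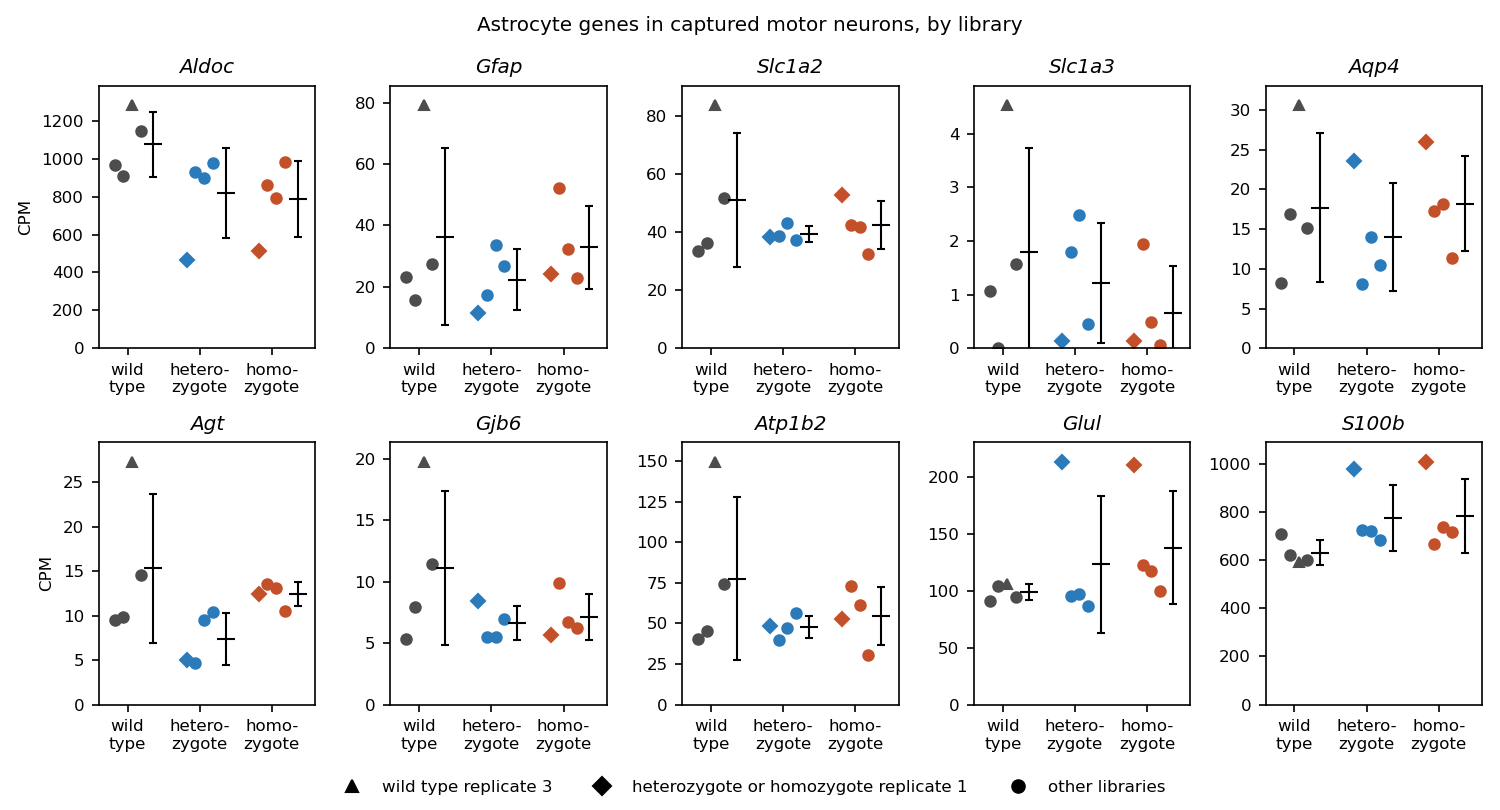
CPM of each of the 10 genes in the 12 libraries, 1 panel per gene with its own linear axis from 0, points for libraries, and the mean and SD of each genotype (n = 4), with bars that end at 0 where they would pass it. Aldoc, Glul and S100b have 1 heterozygote and 1 homozygote point away from the rest, and 8 of the 10 genes have their highest point in wild type.

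**Figure D3:**
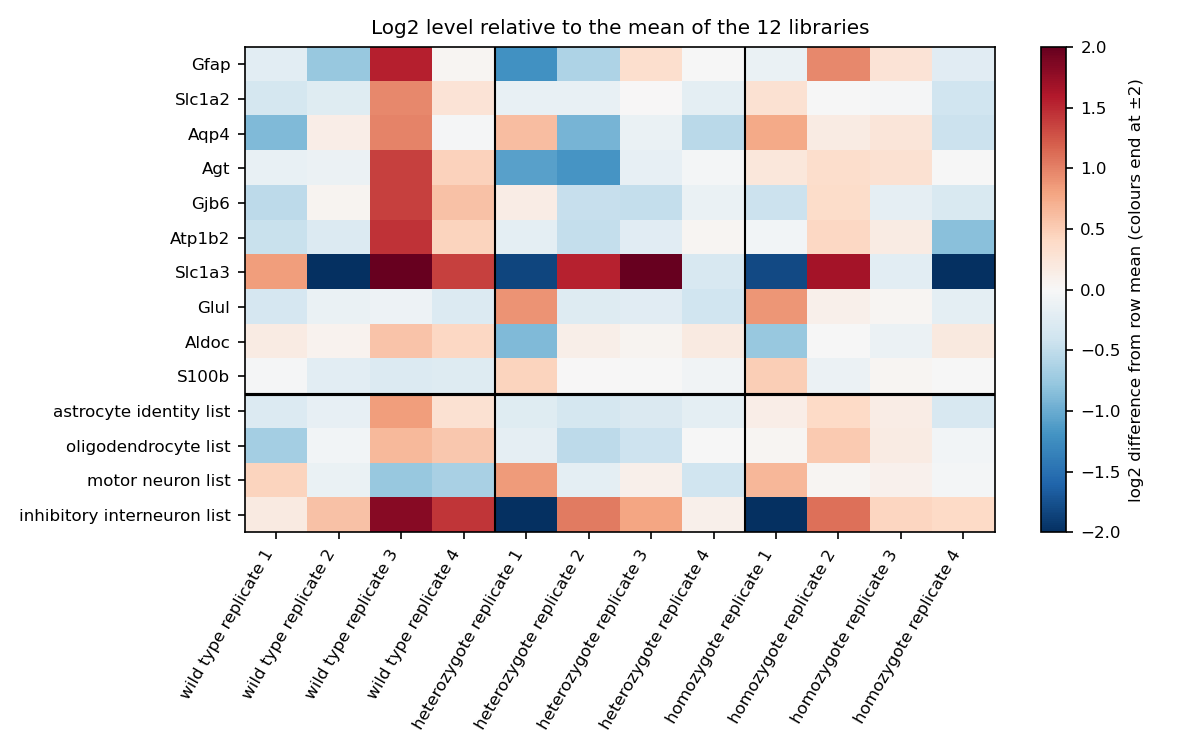
Log2 level of each gene in each library minus its mean over the 12 libraries, with 0.05 CPM added first, and below the line the mean log2 CPM of marker lists treated in the same way. Colours end at a difference of 2 in either direction. Wild type replicate 3 is the highest library for 8 of the 10 genes, and heterozygote replicate 1 and homozygote replicate 1 are high for Glul and S100b and low for Aldoc.

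Whether the genes rose and fell together between libraries was asked with all 45 pairs, on log2 CPM with a prior count of 2. Over the 12 libraries 9 of 45 pairs had a Benjamini-Hochberg adjusted permutation p of Pearson's r below 0.05, 7 of them positive. By Spearman's rho 14 pairs had an unadjusted p below 0.05 and none an adjusted one. Without the 2 libraries set apart, 13 of the 45 pairs passed by Pearson's r and none by Spearman's rho. The group of Gfap, Slc1a2, Aqp4, Agt, Gjb6 and Atp1b2 was formed after the values were seen, and a shared high library gives positive correlations by itself, so its values are a description with no test. Over the 12 libraries r of its 15 pairs ran from 0.322 to 0.89 with a median of 0.698, and without wild type replicate 3 from -0.019 to 0.729 with a median of 0.399. Over the 10 libraries r ran from 0.715 to 0.928 with a median of 0.822, and without wild type replicate 3 as well from 0.349 to 0.812 with a median of 0.618. The median was lower without that library in either reading. Slc1a3, also highest in wild type replicate 3, is not in this group: over the 10 libraries its r with these genes ran from 0.142 with Aqp4 to 0.645 with Gfap, with a median of 0.433.

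The pair with the highest Pearson's r joined the glutamate transporter gene Slc1a2 and the pump subunit gene Atp1b2. Over 12 libraries their r was 0.89 (permutation p = 0.0006, adjusted p = 0.0132) and rho 0.734 (permutation p = 0.00825, adjusted p = 0.0619), and r was 0.812 without the 2 libraries farthest from the median. Over the 10 libraries r was 0.928 (adjusted permutation p = 0.0103). By rho over 12 libraries, Aqp4 with Glul (0.825), Agt with Atp1b2 (0.776), Gfap with Slc1a3 (0.762) and Gjb6 with Atp1b2 (0.741) were higher (adjusted permutation p = 0.0619 for each). The one negative pair that passed over 10 libraries was Gjb6 with S100b, at r = -0.86 (adjusted permutation p = 0.0178) and rho = -0.78. Among Aldoc, Glul and S100b the values depended on the 2 libraries set apart. Glul had r = -0.90 with Aldoc over 12 libraries (adjusted permutation p = 0.022) and -0.36 over 10. With S100b it had r = 0.844 over 12 libraries (adjusted permutation p = 0.0447) and -0.039 over 10. Aldoc and S100b had r = -0.94 over 12 libraries (adjusted permutation p = 0.0132) and -0.73 over 10 (adjusted permutation p = 0.0514), and -0.12 when wild type replicates 3 and 4 were left out of the 10, so this relation rested on those libraries.

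**Figure D4:**
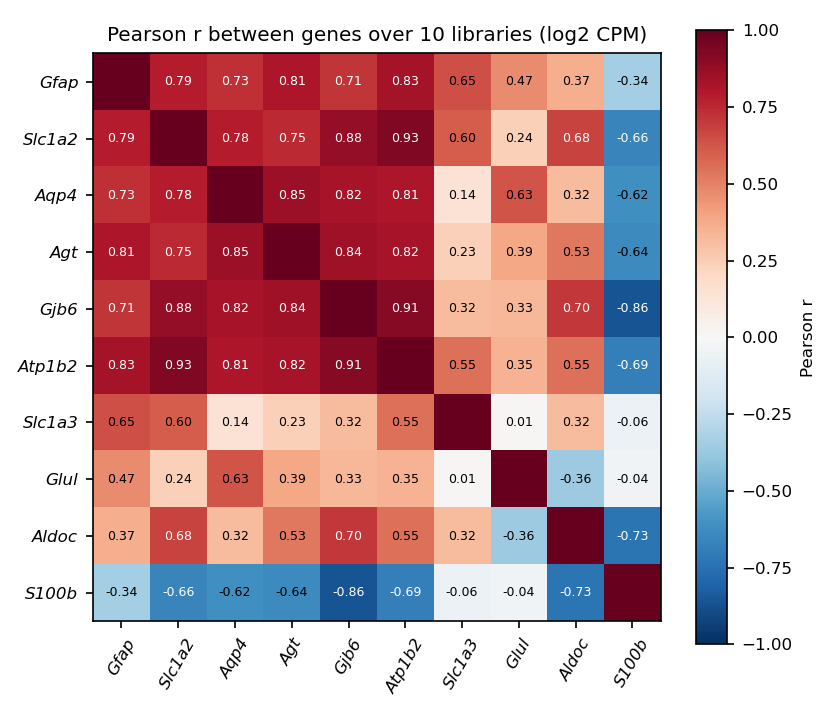
Pearson's r of log2 CPM for the 45 pairs of the 10 genes over 10 libraries, without heterozygote replicate 1 and homozygote replicate 1. The block of Gfap, Slc1a2, Aqp4, Agt, Gjb6 and Atp1b2 is positive throughout, from 0.715 to 0.928.

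Some marker lists of other cell types moved with some of these genes. Each gene was set against the mean log2 CPM of 5 marker lists over the 10 libraries, a reading added after the data were seen, with p adjusted over 50 relations. By Pearson's r 6 of the 50 passed, 4 with the oligodendrocyte list and 2 with the inhibitory interneuron list, and none with the motor neuron, microglia or endothelial lists. By rho 2 passed. With the oligodendrocyte list, Gjb6 had r = 0.876 (permutation p = 0.00015, adjusted p = 0.0075) and rho = 0.903 (permutation p = 0.00084, adjusted p = 0.021). Agt had r = 0.814 (permutation p = 0.00074, adjusted p = 0.0123) and rho = 0.952 (permutation p = 9e-05, adjusted p = 0.0045). Without wild type replicates 1 and 3, the farthest libraries, r was 0.914 for Gjb6 and 0.856 for Agt. Aqp4 and Atp1b2 had r of 0.804 and 0.79 with the same list (adjusted permutation p = 0.0487 for each). Slc1a2 went with the inhibitory interneuron list at r = 0.857 (adjusted permutation p = 0.0123), and at r = 0.593 without the 2 farthest libraries. Gjb6 also passed with that list, at r = 0.791 (adjusted permutation p = 0.0487), and had r = 0.285 without the 2 farthest. The part of these other cells in the levels of the astrocyte genes was not tested. With the motor neuron list, S100b and Aldoc had r of 0.744 and -0.76 (adjusted permutation p = 0.0726 for each). Without wild type replicates 3 and 4 these were 0.293 and -0.206. Gjb6 and Slc1a2 had r of -0.769 and -0.713 with that list (adjusted permutation p = 0.0576 and 0.0726). Without the same libraries these were -0.296 and -0.067.

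All genes with a mean of at least 5 CPM, 10794 in number, were then ranked by their correlation over the 12 libraries with the mean scaled log2 level of the 10 genes. Among the 10 most alike were Aplp1 (r = 0.927), Gja1 (0.921), Apoe (0.907), Sparc (0.894), Kcnj10 (0.884), Mobp (0.883), Plekhb1 (0.855) and Sdc4 (0.851). Gja1, Apoe, Sparc and Kcnj10 are on the list of other astrocyte genes, while Mobp encodes a myelin protein. Of the 100 most alike genes, 0.926% of those ranked, 16 were among the 38 ranked genes of that list (42.1% of it), 7 among the 17 ranked oligodendrocyte genes (41.2%) and none among the 18 motor neuron genes. These values are a description, as the genes share libraries and depth. The ranking rested in part on wild type replicate 3, without which the count of other astrocyte genes was 5 and 38 of the 100 genes were shared. Gja1 had 42.3 CPM in that library and at most 27.0 in any other, and Apoe had 301 against at most 182.

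The genes that broke from the group had other neighbours over the 10 libraries. Aldoc was most like Slc22a23 (r = 0.968), Syt13 (0.932), Drosha (0.928), Ncdn (0.927) and Napb (0.911). S100b was most like Hddc2 (r = 0.943), 1110007C09Rik (0.938), Tcof1 (0.931), Capns1 (0.921) and Sncg (0.917). These r are the highest of a ranking of genes, so they are a description with no test. Spearman's rho ran from 0.612 for Ncdn to 0.964 for Slc22a23 among the neighbours of Aldoc. For those of S100b it ran from 0.758 for Hddc2 to 0.976 for Tcof1. Sncg, the gene of gamma-synuclein, an abundant protein of motor and sensory neurons, had 1443 and 1558 CPM in heterozygote replicate 1 and homozygote replicate 1 and 623 to 1069 in the other 10. Ncdn and Napb, genes of neuronal proteins, had their lowest levels in the same 2 libraries, as Aldoc did: Ncdn had 355 and 322 CPM there and 633 to 961 elsewhere. Not all neighbours did so: Drosha had 46.8 CPM in heterozygote replicate 1, inside its range of 40.3 to 64.4 CPM in the 10 libraries, and Tcof1, like S100b over the 10, had 9.31 and 11.7 CPM in the libraries set apart against 9.35 to 18.4 CPM.

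Homozygotes were compared with wild type to see whether 2 mutant copies changed these genes. None of the 10 passed an adjusted p of 0.05 (edgeR quasi-likelihood test), where 1 of 16338 genes, or 0.00612%, did; none passed with DESeq2 either. At an unadjusted p below 0.05 there was 1 of 10, S100b, against 4.82% of all genes. S100b was higher by 0.31 on the log2 scale (SE 0.14, 95% interval 0.00 to 0.62, adjusted p = 0.986 by edgeR), and by 0.17 without homozygote replicate 1. Aldoc was lower at -0.45 (SE 0.23, interval -0.96 to 0.06), and at -0.29 without that library. No gene of the 10 had groups that did not overlap, against 3.41% of all genes.

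The genes of glutamate handling differed by -0.27 for Slc1a2 (SE 0.25, interval -0.82 to 0.27), -1.44 for Slc1a3 (SE 1.42, interval -4.52 to 1.63) and 0.48 for Glul (SE 0.29, interval -0.15 to 1.11). For Gfap the difference was -0.14 (SE 0.48, interval -1.19 to 0.90) and for Aqp4 0.04 (SE 0.41, interval -0.85 to 0.93). Agt, Gjb6 and Atp1b2 gave -0.30, -0.64 and -0.51, each with an interval across 0. Without homozygote replicate 1 Glul was at 0.20 and Aqp4 at -0.17. The interval of Slc1a2 spans folds of 0.566 to 1.21, whereas that of Slc1a3 spans folds of 0.0435 to 3.10. In 7 of 10 genes the value was below 0, against 50.6% of all genes, and the median was -0.29 against -0.0032 for all genes. Without wild type replicate 3, the values of Gfap, Slc1a2, Agt and Atp1b2 turned positive, at 0.58, 0.07, 0.14 and 0.03, Gjb6 was at -0.21, Slc1a3 at -0.43 and Aqp4 at 0.45. Slc1a3 was at -2.96 without homozygote replicate 2. In this comparison 14 of 18 motor neuron markers were above 0, with a median of 0.50, and 9 of 10 inhibitory interneuron markers below 0, with a median of -0.67. Of the 18 oligodendrocyte markers, 10 were above and 8 below 0, with a median of 0.08. None of them was called, and their part in the values of the astrocyte genes was not tested.

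Heterozygotes were compared with wild type in the same way, to see the effect of a single mutant copy. None of the 10 genes was called, nor was any gene of the table (0%), with edgeR. With DESeq2 27 genes were called and none of the 10. At an unadjusted p below 0.05 there was 1 of 10, Agt, against 4.1% of all genes. Agt was lower at -1.05 (SE 0.36, interval -1.84 to -0.27, adjusted p = 0.999 by edgeR), a fold of 0.481, and -0.61 without wild type replicate 3. No gene of the 10 had groups that did not overlap, against 3.24% of all genes.

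Of the 10 genes, 8 had values below 0, against 50.3% of all genes, with a median of -0.48 against -0.0013. Gfap had -0.70 (SE 0.48), Gjb6 -0.75 (SE 0.36), Atp1b2 -0.70 (SE 0.37) and Slc1a2 -0.38 (SE 0.25). Without wild type replicate 3 these became 0.02, -0.31, -0.16 and -0.03, so they were nearer 0 without that library. Glul was above 0 at 0.32 (SE 0.29) through heterozygote replicate 1 and at -0.08 without it. That library also moved Aldoc from -0.39 to -0.20, S100b from 0.30 to 0.17 and Aqp4 from -0.34 to -0.70. Without wild type replicate 3 Aqp4 was at 0.07, and Slc1a3 went from -0.56 to 0.46. All 18 oligodendrocyte markers were also below 0 in this comparison, with a median of -0.42. Motor neuron markers were above 0 in 14 of 18, with a median of 0.43, and inhibitory interneuron markers below 0 in 9 of 10, with a median of -0.67. None was called, and their part in the values of the astrocyte genes was not tested.

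The third comparison set homozygotes against heterozygotes. None of the 10 genes and no gene of the table (0%) was called with edgeR, and DESeq2 called 19 genes and none of the 10. No gene of the 10 had an unadjusted p below 0.05, against 2.97% of all genes. Agt was the 1 gene whose groups did not overlap, against 2.03% of all genes in either direction and 1.03% with homozygotes higher. It was higher in homozygotes at 0.75 (SE 0.36, interval -0.03 to 1.54, adjusted p = 1.0 by edgeR). The value was above 0 for 8 of 10 genes, against 49.8% of all genes, with a median of 0.13. Of the 18 oligodendrocyte markers 17 were above 0 here, with a median of 0.45 and none called. The 3 comparisons share their groups, so their values are set side by side and not counted as separate evidence.

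**Figure D5:**
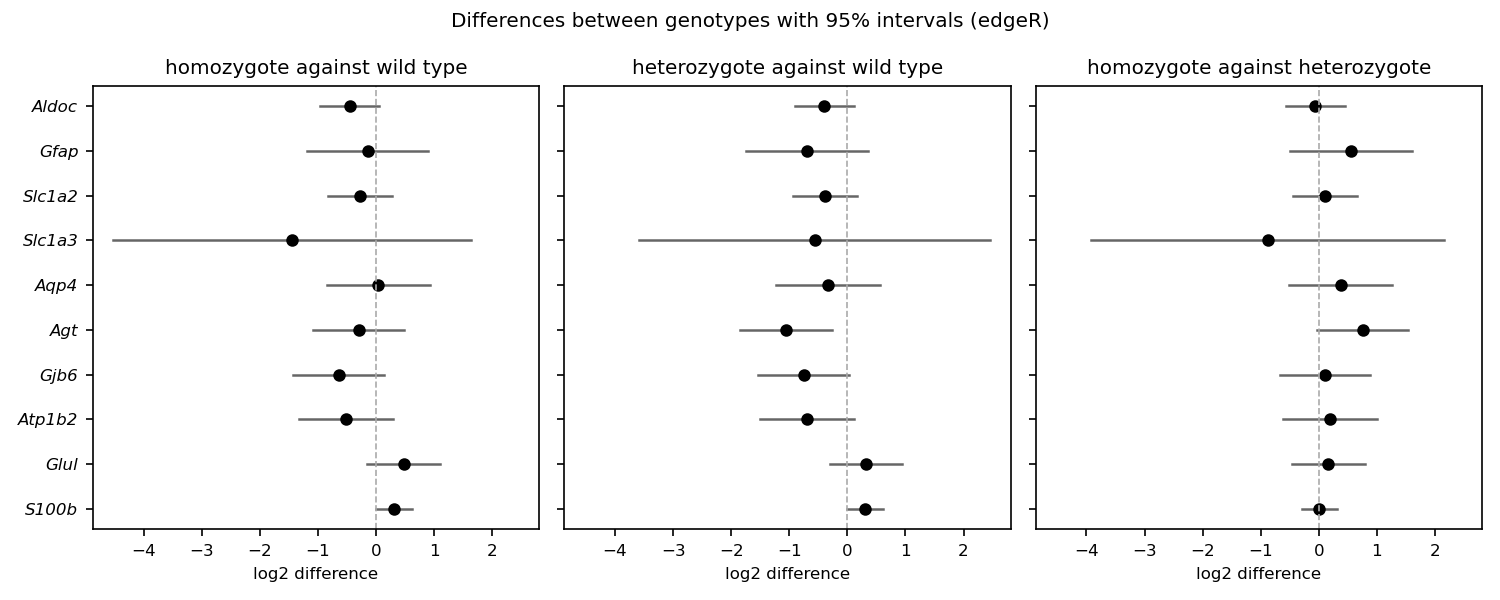
Log2 difference of each of the 10 genes in the 3 comparisons, with 95% intervals from the edgeR fit over 16338 genes. Most intervals cross 0, that of Slc1a3 is by far the widest, and no adjusted p is below 0.05.

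The other genes of the pathways of these 10 gave no called gene in any comparison (edgeR). At an unadjusted p below 0.05 there were at most 2 in any of 7 lists and comparisons, and up to 7 of 58 in the list of other astrocyte identity genes. That highest count was in heterozygotes against wild type, 12.1% of the list against 4.1% of all genes. Shares in the same comparison were 15.4% of the glutamate and glycine list (2 of 13) and 14.3% of connexins (1 of 7). They were 11.1% of sodium pump genes (1 of 9) and 7.7% of end-foot genes (1 of 13). The S100, angiotensin and reactive astrocyte lists had 0. Of 13 other genes of glutamate and glycine uptake and the glutamine cycle, 1 was above and 12 below 0 in homozygotes against wild type, with a median of -0.35, and the same split was found in heterozygotes, with a median of -0.40. The highest expressed were Glud1, glutamate dehydrogenase, at -0.12 (SE 0.08) in homozygotes, and Abat, the enzyme that breaks down GABA, at -0.54 (SE 0.41). Abat had 50.7 and 58.4 CPM in heterozygote replicate 1 and homozygote replicate 1 and 173 to 259.8 CPM in the other 10 libraries. These are the libraries with little interneuron marker RNA, and the part of interneurons in the values of this list was not tested.

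Of 13 other genes of end-foot channels and the dystrophin complex, 4 were above and 9 below 0 in homozygotes and 3 and 10 in heterozygotes. Of the 7 other connexins tested, 5 were above 0 in homozygotes and 1 in heterozygotes. Gja1, the connexin partner of Gjb6 in astrocytes, gave -0.32 in homozygotes (SE 0.47) and -0.86 in heterozygotes (SE 0.48). Of the 9 other sodium pump genes, 5 were above 0 in homozygotes and 3 in heterozygotes. Atp1b1, the beta subunit that stands beside Atp1b2, gave -0.16 in homozygotes (SE 0.09) and -0.11 in heterozygotes (SE 0.09).

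Of 8 genes listed with the S100 proteins, 1 of which (S100pbp) encodes a binding partner of S100 proteins, 3 were above 0 in homozygotes and 2 in heterozygotes. S100a10, the highest of them, was high in the libraries set apart, as S100b was, at 558 and 580 CPM against 163 to 355. It was the only 1 of the 8 (12.5%) above all of the other 10 libraries in both, against 10.3% of all genes. Of 7 angiotensin system genes, 2 were above 0 in each comparison with wild type. Neither Ace, the converting enzyme, nor Agtr2, a receptor, was called, and Agtr2 gave -0.53 in heterozygotes (SE 0.31) beside the -1.05 of Agt.

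Genes that rise in reactive astrocytes, the state taken on after injury, gave no call among 27 tested. In homozygotes 13 were above and 14 below 0, with a median of -0.09, and in heterozygotes 12 and 15, with a median of -0.04. Gfap belongs with these genes in textbook accounts. It was highest in wild type replicate 3, and none of the 27 was, against 8.13% of all genes tested. At an unadjusted p below 0.05 there was 1 of 27 in homozygotes against wild type (3.7%, against 4.82% of all genes). In heterozygotes against wild type there was none. The 1 gene was Hspb1, a small heat shock protein that motor neurons also hold, at 1.09 in homozygotes (SE 0.45, adjusted p = 0.986 by edgeR). Its values of 621 and 796 CPM in heterozygote replicate 1 and homozygote replicate 1 stood above the 108 to 356 CPM of the other 10. Serpina3n, a protease inhibitor of reactive astrocytes, gave 0.32 (SE 0.29) and H2-D1, a class I histocompatibility gene, 0.13 (SE 0.13).

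Of 58 other astrocyte identity genes, 24 were above and 34 below 0 in homozygotes, with a median of -0.17, and 11 and 47 in heterozygotes, with a median of -0.47. Between homozygotes and heterozygotes 46 were above 0, with a median of 0.34. As for the 10 genes, the median lay further below 0 in heterozygotes than in homozygotes, in comparisons that share their wild type libraries. Of the 58, 27 (46.6%) were highest in wild type replicate 3. In both libraries set apart, 9 of the 58 (15.5%) lay above and 7 (12.1%) below all of the other 10. The shares of all genes tested were 10.3% and 10.6%. Clu, the gene of the secreted chaperone clusterin, and Htra1, a secreted protease gene, were among those high in these libraries. Glul and S100b were also high in them. Clu had 2048 and 2175 CPM there and 1223 to 1558 in the other 10, and Htra1 had 985 and 921 CPM against 238 to 533.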

How the data were processed

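The samples were grouped by genotype from the sample labels. Per the labels' protocols, RNA was extracted with a PicoPure kit and libraries were made with the SMART-seq v4 and Nextera XT kits, which mark no strand and use no molecular identifiers. Trim Galore 0.4.3, HISAT2 2.0.5 and the build GRCm38 are named in the submitters' processing notes; for the counting step no tool is given in the sources used here. The authors deposited raw counts per gene for the 12 libraries, 60886825 to 83504446 in total. No row had a blank name, and 66 entries repeated a symbol.

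From these counts, genes were kept with filterByExpr, scaled by TMM and tested with edgeR 4.0.16 (quasi-likelihood, R 4.3.3) over 16338 genes and all 12 libraries, with Benjamini-Hochberg adjustment and a threshold of 0.05. DESeq2 1.42.0, other filters and scalings, a replicate block, a covariate and leaving out libraries were the alternatives. The fit was tested on simulated data for homozygotes against wild type. There edgeR recovered 14% of 1.5-fold, 46% of 2-fold, 76% of 4-fold and 94% of 8-fold changes. A gene that was not called can therefore still differ, above all by a small fold. CPM use TMM library sizes, and log2 CPM a prior count of 2. Lengths are unions of exons in GENCODE M21, matched by symbol and strand; for Aqp4 start and end differ from that annotation, so its coordinates are those of the deposited table. Correlations used 100000 permutations, two-sided.

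The 10 genes and all lists were chosen with earlier results of these data known. The genes named are the 10, the 10 most alike genes, and the up to 4 highest expressed of each of 8 pathway lists; Htra1 and the nearest genes of Aldoc and S100b were named after their values were seen. A few genes that this rule selects are not reported here.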

Additional observations from a re-analysis of the deposited data

Results flagged for a closer look

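In groups of 4 libraries, the lone highest or lowest library was compared with the rest by Dixon's ratio at its 95% critical value. Of 30 groups tested 3 passed, and chance passes about 1 in 20 groups. Heterozygote replicate 1 was far below the other heterozygotes for Aldoc at 467 CPM, and far above them for Glul at 213 CPM and for S100b at 979 CPM. All 3 concern the same library, 1 of the 2 that stood apart in motor neuron and interneuron markers.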

How the results depend on the processing

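No gene of the 10 was called under any of the 20 alternatives of each comparison (200 values a comparison, lowest adjusted p 0.309, 0.484 and 0.935). Over all genes, homozygotes against wild type gave 1 call, but 31 with DESeq2 and 0 with no filter, with genes detected as a covariate, with only the 8 libraries compared, without both libraries set apart, and in every leave-one-out fit (0 to 0); DESeq2 gave 27 and 19 calls in the other comparisons against 0. Pairs that passed went from 9 to 0 by Spearman's rho and 16 centred within genotype, and ran from 3 to 9 leaving out 1 library. Alike astrocyte genes went from 16 to 5 without wild type replicate 3.

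Signs turned in 11, 7 and 13 of 200 values. With the replicate block Gfap in homozygotes against wild type was 0.0745, and the calls over all genes remained 1, 0 and 0 in number; the numbers did not pair the libraries (same-number correlations -0.05 to 0.45 over 12 pairs, 4 of 12 libraries closest to their own number). With the covariate, homozygotes against wild type gave 0.53 for Gfap and -0.22 for Aqp4, heterozygotes against wild type 0.53 for Slc1a3 and -0.094 for Glul, and homozygotes against heterozygotes -0.008 for S100b. Without both libraries set apart these were -0.18 for Aqp4, -0.081 for Glul and -0.005 for S100b, and -0.029 for Slc1a2 in homozygotes against heterozygotes. Leaving out 1 library, homozygotes against wild type ran from -0.45 to 0.58 for Gfap, -0.42 to 0.073 for Slc1a2, -0.19 to 0.45 for Aqp4, -0.46 to 0.14 for Agt and -0.72 to 0.027 for Atp1b2. Heterozygotes against wild type ran from -0.96 to 0.019 for Gfap, -1.17 to 0.46 for Slc1a3, -0.70 to 0.071 for Aqp4 and -0.084 to 0.46 for Glul. Homozygotes against heterozygotes ran from -0.25 to 0.11 for Aldoc, -0.011 to 0.21 for Slc1a2, -0.095 to 0.24 for Gjb6, -0.12 to 0.56 for Glul and -0.13 to 0.14 for S100b. Beyond what each alternative leaves out, the cause was not tested. Slc1a3 had the fewest counts of the 10 genes, at 0 to 305, and the part of depth in this was not tested.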
